A study of Mus musculus with 12 samples.

Results

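The genes described here are 9 antimicrobial and acute phase genes of mouse epidermis: Saa3, Saa1, Hp, Lcn2, Ltf, Camp, Cd14, Pglyrp1 and 2610528A11Rik. They were listed by symbol, and all 9 were found among the 19477 genes with a value at either age. The list was drawn up with the expression values of the same 12 libraries in view, so every contrast between the genotypes below is given for these genes as a description and without a test. The libraries hold total RNA of dorsal epidermis on a C57BL/6 background, with 3 libraries in each of 4 groups. Both genotypes carry floxed alleles (fl/fl) of VDR, the vitamin D receptor, and of Med1, a Mediator subunit that acts as its coactivator. The mice labelled DKO were K14 Cre+/- and the control mice K14 Cre-/-, and each genotype was sampled at postnatal day 36 (P36) and at 6 months. The keratin 14 promoter drives Cre in keratinocytes, so immune, fat, muscle and dermal cells of the mice labelled DKO are not targeted. The labels do not say whether the replicates are separate animals, so every error below measures the spread between these libraries.

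Skin answers injury, microbes and barrier stress with proteins that kill bacteria, starve them of iron or sense their walls. Acute phase proteins are best known as products of the liver, but serum amyloid A and haptoglobin are also made locally in skin, fat and macrophages. Several of the 9 genes are made both by keratinocytes and by neutrophils or macrophages. In human cells the genes for cathelicidin and CD14 are known targets of the vitamin D receptor, but the element in the human cathelicidin promoter lies in a repeat that mice lack.

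Expression is given as FPKM, fragments scaled by gene length and library total, which allows levels to be compared between genes. The tables hold no read totals, so the depth is unknown and no counting interval is given. Between 12056 and 12760 genes reached 1 FPKM per library. Vdr had 87.4, 86.7 and 76.5 FPKM at P36 in the libraries labelled DKO, against 65.8, 65.5 and 72.8 FPKM in control (log2 difference 0.29, limma adjusted p = 0.0573). At 6 months Vdr had 49.3, 42.1 and 52.9 FPKM in the libraries labelled DKO, against 53.5, 31.4 and 36.7 FPKM in control (log2 difference 0.27, adjusted p = 0.302). Vdr was therefore not lower where the label calls for a knockout, and an FPKM value over the whole gene cannot show a missing exon. Med1 fell at P36 (log2 difference −0.55, SE 0.11, limma adjusted p = 0.0083) and had a log2 difference of −0.26 at 6 months (adjusted p = 0.13). Each direction below rests on the labels. The keratinocyte list was high in every library, with a mean log2(FPKM + 1) of 8.20 to 9.85, and libraries labelled DKO held more marker RNA of other cell types at P36, as given beside the results. At 6 months replicate 3 labelled DKO stood apart from the other libraries of its group in macrophage, muscle, fat and dermal fibroblast markers. Results that rest on that library are given with and without it.

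At P36 all 9 genes were higher in every library labelled DKO than in every control library. At 6 months that held for 6 of the 9, and only Lcn2 and 2610528A11Rik were high in all 3 libraries labelled DKO. Over all genes with values, every library labelled DKO stood above every control library for 23.8% at P36 and 25.1% at 6 months. The 9 genes were chosen on these contrasts, so nothing is read from their share. The same holds for the calls across all genes, made by limma at a Benjamini-Hochberg adjusted p below 0.05. At P36, 7 of the 9 passed the filter of 1 FPKM in at least 3 libraries and all 7 were called higher, against 18.0% of all genes. At 6 months 6 passed and 2 were called higher, against 23.2% of all genes. Only 3 genes at P36 and 2 at 6 months would have passed the filter in the control libraries alone. The rest passed only with values of libraries labelled DKO, the group where they were higher, apart from Pglyrp1 at 6 months.

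**Figure D1:**
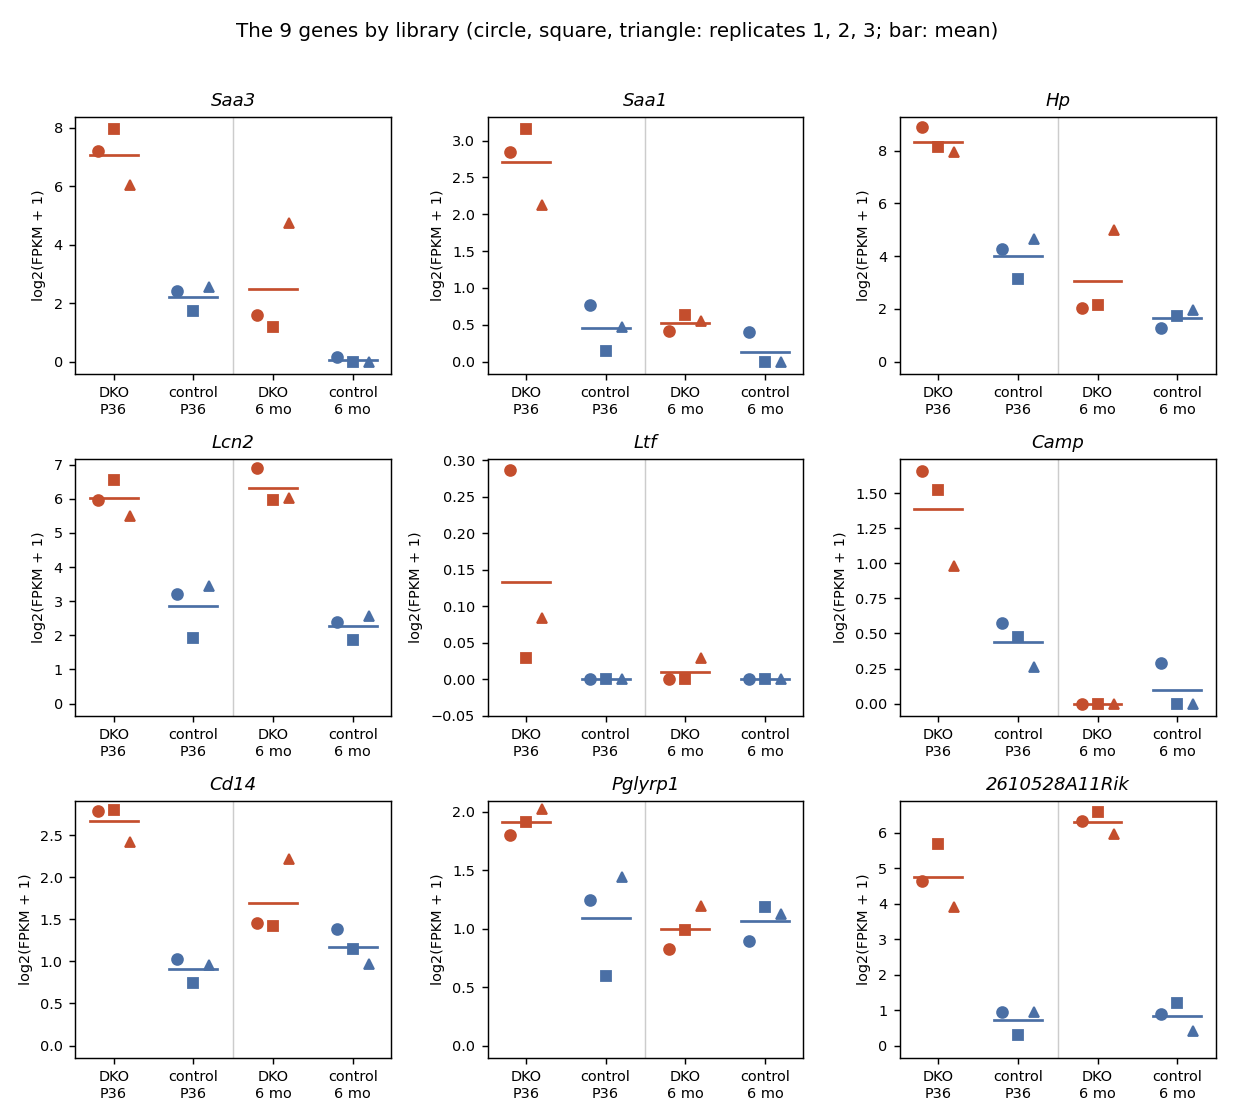
Level of each of the 9 genes as log2(FPKM + 1), with 1 point per library and a bar for the group mean, for libraries labelled DKO (red) and control (blue) at P36 and at 6 months (3 libraries per group). Lcn2 and 2610528A11Rik are high in libraries labelled DKO at both ages, Saa3 and Hp are high at P36 and at 6 months mainly in replicate 3, and the y axes differ between panels.

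Promoter sequences are shown for 3 of the genes, which stand for the 2 patterns over age: Saa3, high mainly at P36, and Lcn2 and 2610528A11Rik, high at both ages. Each sequence is the 250 bases before the RefSeq transcription start on the gene's own strand, from GRCm38.p6. The Saa3 stretch is chr7:46715677-46715926, the Lcn2 stretch chr2:32387740-32387989 and the 2610528A11Rik stretch chr14:37110102-37110351, all on the minus strand. Capitals mark matches to the C/EBP motif TTGCNNAA on either strand.
Saa3: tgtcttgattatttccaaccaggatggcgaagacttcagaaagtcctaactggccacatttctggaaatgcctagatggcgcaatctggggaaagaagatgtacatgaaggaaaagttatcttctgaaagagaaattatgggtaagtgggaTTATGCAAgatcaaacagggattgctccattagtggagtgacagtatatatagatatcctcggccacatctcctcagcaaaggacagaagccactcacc
Lcn2: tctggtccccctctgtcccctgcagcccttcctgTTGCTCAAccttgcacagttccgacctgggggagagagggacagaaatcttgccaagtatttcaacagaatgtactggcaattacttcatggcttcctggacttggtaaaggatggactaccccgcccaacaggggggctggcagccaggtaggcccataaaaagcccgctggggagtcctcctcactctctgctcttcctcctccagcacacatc
2610528A11Rik: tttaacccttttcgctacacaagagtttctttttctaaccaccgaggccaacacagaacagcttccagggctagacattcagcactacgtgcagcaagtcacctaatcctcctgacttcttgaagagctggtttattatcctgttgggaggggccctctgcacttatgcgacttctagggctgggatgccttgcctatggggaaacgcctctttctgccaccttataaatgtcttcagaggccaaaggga

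C/EBP factors are transcriptional activators of acute phase genes in liver, and their motif was searched together with those of STAT (TTCNNNGAA), of NF-kappaB and of the vitamin D receptor's direct repeat, the last 2 by their degenerate consensus. The RefSeq promoters of 7 of the 9 genes were searched, and those of Hp and Cd14 were not. The C/EBP motif occurred in 4 of these 7 (Saa3, Saa1, Lcn2 and Ltf), and in 9.56% of all 32851 promoters of the same length. In Saa3 the match TTATGCAA began 99 bases before the start, and in Lcn2 the match TTGCTCAA began 216 bases before it. The NF-kappaB motif occurred in Pglyrp1 alone, as GGAAAGTCCC, and in 3.90% of all promoters. The STAT motif, present in 7.02% of all promoters, and the vitamin D receptor repeat, present in 0.0396%, had no match in the 7. None of the 4 motifs was found in the 2610528A11Rik stretch. A match describes letters in this window and is not a binding site, and no match says only that these letters are not in it.

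The acute phase genes were far higher in libraries labelled DKO at P36. Serum amyloid A3 (Saa3), an acute phase protein made outside the liver, had 145, 249 and 64.6 FPKM in libraries labelled DKO, against 4.31, 2.33 and 4.80 FPKM in control (log2 difference 4.84, SE 0.44, n = 3 each). Replicate 2 labelled DKO was the highest and replicate 3 the lowest, and all 3 were far above control. Haptoglobin (Hp), which binds free haemoglobin, had 474, 278 and 247 FPKM in libraries labelled DKO, against 18.1, 7.80 and 23.9 FPKM in control (log2 difference 4.31, SE 0.39). Hp had the highest FPKM of the 9 genes in each library labelled DKO at P36. Saa1, a circulating serum amyloid A, had 6.21, 7.94 and 3.35 FPKM in libraries labelled DKO, against 0.70, 0.10 and 0.39 FPKM in control (log2 difference 2.25, SE 0.28, or 3.71 with a pseudocount of 0.1). The groups did not overlap for any of the 3 genes. Saa1 is uncertain as a single gene, because 31.1% of the 50-base words of its GENCODE transcripts also occur in Saa2, against 0.357% in Saa3.

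At 6 months the same 3 genes were low, apart from 1 library. Saa3 had 2.01, 1.27 and 25.6 FPKM in libraries labelled DKO, against 0.12, 0 and 0 FPKM in control. Hp had 3.09, 3.45 and 31.1 FPKM in libraries labelled DKO, against 1.44, 2.30 and 2.91 FPKM in control. The high value of both genes was in replicate 3 of the group labelled DKO, and the groups did not overlap with or without it. The log2 difference of Hp was 1.41 (SE 0.74), and 0.43 without that library. Saa3 had a log2 difference of 2.45 (SE 0.84), or 5.01 with a pseudocount of 0.1, and did not pass the filter on low values without it. Saa1 had 0.33, 0.55 and 0.46 FPKM in libraries labelled DKO, against 0.32, 0 and 0 FPKM in control, and did not pass the filter. In the authors' deposited table the log2 ratio of Saa3 was 5.32 at P36 and 7.89 at 6 months, where control values were at or near 0. The authors' deposited table gave Hp a log2 ratio of 4.33 at P36 and 2.48 at 6 months.

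Marker genes of other cell types moved with these levels. At P36 all 11 monocyte and macrophage markers rose, with a summed level of 292 to 459 FPKM in libraries labelled DKO, against 58.2 to 79.7 FPKM in control. Of 8 fitted adipocyte markers 7 rose (median log2 difference 2.39), and the mean log2(FPKM + 1) of the list was 4.50 to 5.13 in libraries labelled DKO, against 2.25 to 2.85 in control. Their summed levels overlapped, with 1002 to 1285 FPKM in libraries labelled DKO, against 718 to 1132 FPKM in control, and most of each sum was Fabp4, the 1 fitted marker that was not called. Further, all 9 fitted skeletal muscle markers rose (summed level of 130 to 558 FPKM, against 12.9 to 26.4 FPKM in control). At 6 months replicate 3 of the group labelled DKO stood apart, with 411 FPKM of summed macrophage markers, against 92.3 and 110 FPKM in the other libraries labelled DKO and 90.4, 87.6 and 148 FPKM in control. Its muscle sum was 139 FPKM, against 16.9 and 8.94 FPKM in the others of its group and 10.3, 62.0 and 28.5 FPKM in control. Its dermal fibroblast sum was 1049 FPKM, against 367 and 441 FPKM in the others of its group and 728, 570 and 1057 FPKM in control. Its adipocyte sum was 453 FPKM, against 185 and 108 FPKM in the others of its group and 97.5, 216 and 532 FPKM in control. The adipocyte sum was thus higher in that library than in the others labelled DKO, as Saa3 and Hp were, and control replicate 3, with the highest sum, had Saa3 listed at 0 and Hp at 2.91 FPKM. In this library 258 of 12594 genes (2.05%) were at least 1 higher on the log2 scale than in both other libraries labelled DKO, and Saa3 and Hp were among them. The part of these cell types in the levels of Saa3, Saa1 and Hp was not tested, and in bulk tissue fewer cells of a type and less RNA per cell cannot be told apart.

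**Figure D2:**
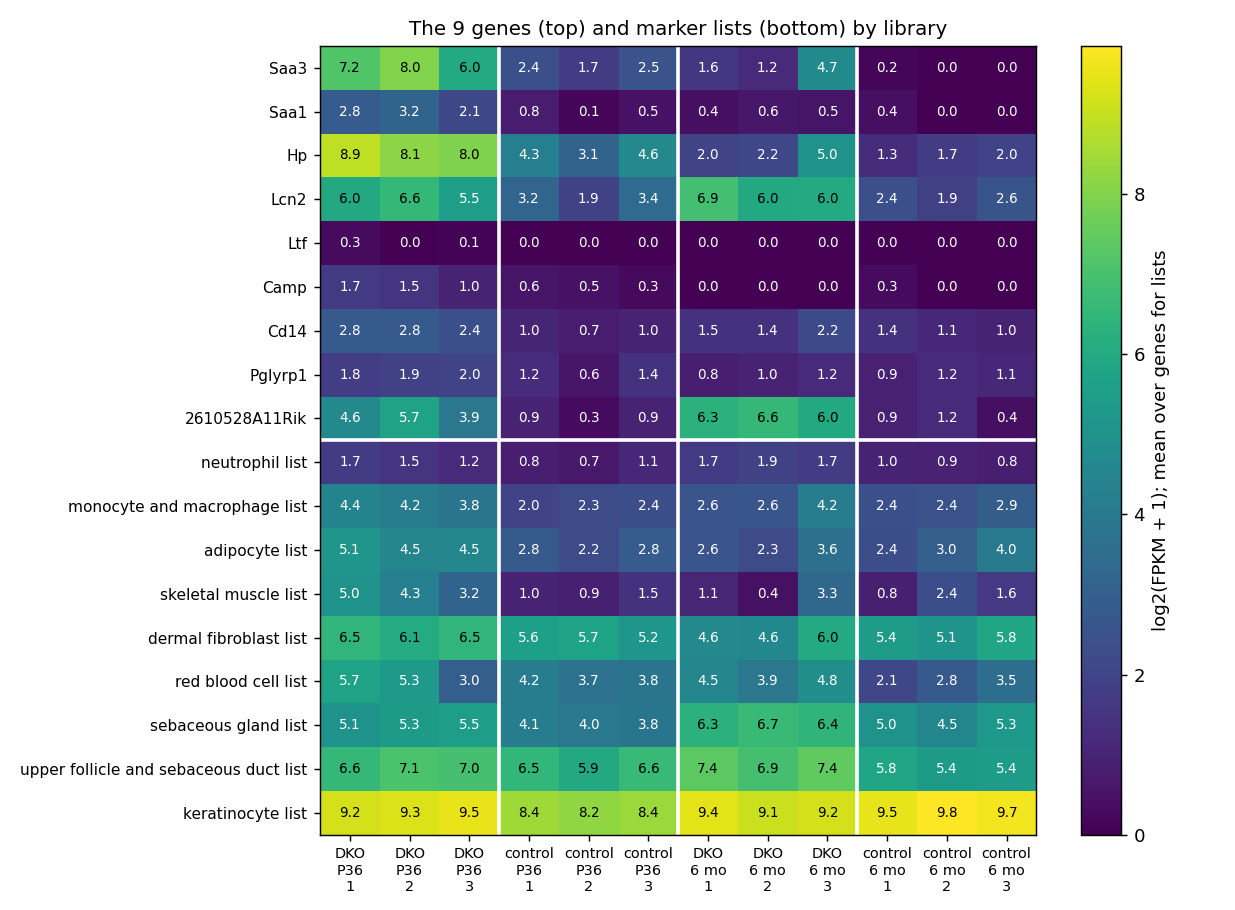
Log2(FPKM + 1) of the 9 genes (upper rows) and the mean log2(FPKM + 1) of each marker list (lower rows) in the 12 libraries, with libraries labelled DKO left of control at each age. The macrophage, adipocyte and muscle lists are high in the P36 libraries labelled DKO, and the macrophage and muscle lists are also high in replicate 3 labelled DKO at 6 months, as are Saa3 and Hp. The dermal fibroblast list is higher in the P36 libraries labelled DKO than in P36 control, and at 6 months highest in replicate 3 labelled DKO.

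Lipocalin 2 (Lcn2) captures bacterial siderophores and so withholds iron from bacteria. At P36 it had 61.9, 93.3 and 44.5 FPKM in libraries labelled DKO, against 8.30, 2.75 and 9.86 FPKM in control (log2 difference 3.16, SE 0.41, n = 3 each). The 6-month values were 119, 61.8 and 63.9 FPKM in libraries labelled DKO, against 4.24, 2.66 and 4.88 FPKM in control (log2 difference 4.03, SE 0.28). The groups did not overlap at either age, and replicate 3 labelled DKO at 6 months, in which Saa3 and Hp were high, had no excess of Lcn2. Between the ages the log2 difference moved by 0.87 (6 months minus P36, SE 0.57). Lactoferrin (Ltf), which binds iron itself, had 0.22, 0.02 and 0.06 FPKM in libraries labelled DKO at P36 and was listed at 0 in all 3 control libraries. In the 6-month libraries it was listed at 0 in all but replicate 3 labelled DKO, with 0.02 FPKM. Lcn2 was therefore the iron-withholding gene of the pair that was well expressed.

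2610528A11Rik, which encodes the secreted ligand of the receptor Gpr15, also described as an antimicrobial peptide of barrier epithelia, had the largest fitted difference of the 9 at 6 months on the log2(FPKM + 1) scale. In the authors' deposited table its log2 ratio at that age was 6.56, below the 7.89 of Saa3. It had 78.8, 94.0 and 61.5 FPKM in libraries labelled DKO at that age, against 0.86, 1.30 and 0.33 FPKM in control (log2 difference 5.45, SE 0.23, n = 3 each). At P36 it had 23.9, 50.3 and 13.9 FPKM in libraries labelled DKO, against 0.92, 0.23 and 0.92 FPKM in control (log2 difference 4.01, SE 0.41). Every library labelled DKO at 6 months lay above every one at P36, whereas the control libraries of both ages overlapped. The share of all genes with this pattern between the ages is not given, so nothing is read from it. The log2 difference moved by 1.44 between the ages (6 months minus P36, SE 0.54). Its receptor Gpr15, found on T cells, had 0.04, 0.13 and 0.04 FPKM at P36 in libraries labelled DKO, against 0.13, 0.09 and 0 FPKM in control. At 6 months Gpr15 had 0.50, 0.40 and 0.35 FPKM in libraries labelled DKO, against 0, 0.19 and 0.14 FPKM in control, too low for the fit at either age.

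Markers of hair follicle and gland moved with Lcn2 and 2610528A11Rik at 6 months. Of 7 upper follicle and sebaceous duct markers 5 rose and 0 fell at that age, with a summed level of 2528 to 3680 FPKM in libraries labelled DKO, against 972 to 1188 FPKM in control. At P36, where both genes were also higher, 1 of these 7 rose and the sums overlapped, with 2855 to 3469 FPKM in libraries labelled DKO, against 2224 to 3319 FPKM in control. Of 8 sebaceous gland markers 6 rose at P36 and 5 at 6 months. Of 8 keratinocyte markers 4 rose and 0 fell at P36, and 1 rose and 4 fell at 6 months. Of 5 red blood cell markers 0 passed limma's test at P36 and 4 rose at 6 months. Of 9 dermal fibroblast markers 4 rose at P36 and 2 fell at 6 months. The part of these markers in the levels of Lcn2 and 2610528A11Rik was not tested.

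**Figure D3:**
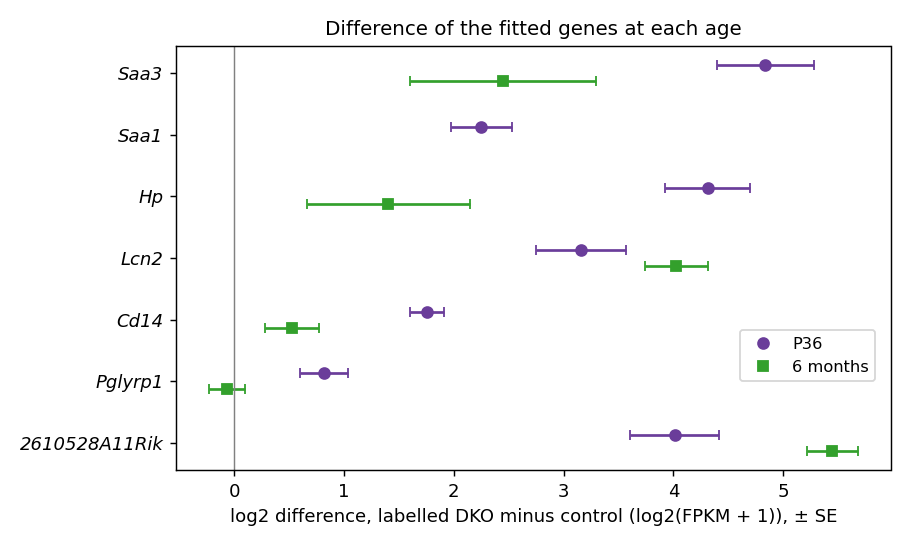
Log2 difference of each fitted gene, libraries labelled DKO minus control on the log2(FPKM + 1) scale, with bars of 1 SE from the limma fit, at P36 (circles) and at 6 months (squares). Lcn2 and 2610528A11Rik have larger differences at 6 months than at P36, and Saa3, Hp, Cd14 and Pglyrp1 have smaller ones; Saa1 was fitted at P36 only, and Camp and Ltf at neither age.

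Cathelicidin (Camp) and the sensing genes were low throughout. Camp, the precursor of the antimicrobial peptide CRAMP of neutrophils and epithelia, had 2.16, 1.87 and 0.97 FPKM at P36 in libraries labelled DKO, against 0.49, 0.39 and 0.20 FPKM in control. By 6 months it was listed at 0 in all 3 libraries labelled DKO, against 0.22, 0 and 0 FPKM in control. Camp did not pass the filter at either age, and the P36 groups did not overlap. Cd14, the co-receptor that hands lipopolysaccharide to Tlr4, had 5.92, 5.96 and 4.32 FPKM at P36 in libraries labelled DKO, against 1.04, 0.67 and 0.94 FPKM in control (log2 difference 1.76, SE 0.15, n = 3 each). The 6-month values of Cd14 were 1.74, 1.68 and 3.63 FPKM in libraries labelled DKO, against 1.62, 1.21 and 0.96 FPKM in control (log2 difference 0.53, SE 0.24, and 0.27 without replicate 3 labelled DKO). These groups did not overlap either, but the lowest library labelled DKO and the highest control library nearly met. Pglyrp1, which binds bacterial peptidoglycan, had 2.49, 2.75 and 3.05 FPKM at P36 in libraries labelled DKO, against 1.37, 0.51 and 1.71 FPKM in control (log2 difference 0.82, SE 0.22, or 1.28 with a pseudocount of 0.1). The 6-month values of Pglyrp1 were 0.77, 0.98 and 1.28 FPKM in libraries labelled DKO, against 0.86, 1.27 and 1.18 FPKM in control (log2 difference −0.07, SE 0.16), and the groups overlapped.

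Camp, Ltf, Lcn2 and Pglyrp1 are also stored in neutrophil granules, so neutrophil markers are set beside them. Of 13 neutrophil markers, 5 were fitted at P36 and 3 rose, among them Retnlg with 4.24, 1.83 and 1.24 FPKM in libraries labelled DKO, against 0.19, 0 and 0.29 FPKM in control. Csf3r, the receptor of granulocyte colony-stimulating factor, had 6.13, 3.45 and 1.84 FPKM in libraries labelled DKO at P36, against 0.48, 0.36 and 0.50 FPKM in control. Replicate 1 labelled DKO was the highest for both, as it was for Camp and for Ltf, which was at most 0.22 FPKM. Lcn2 was highest in replicate 2, and Pglyrp1 was lowest in replicate 1. Of the other fitted markers, S100a8 and S100a9 were highest in replicate 1 and Cxcr2 in replicate 2. The mean log2(FPKM + 1) of the list at P36 was 1.23 to 1.73 in libraries labelled DKO, against 0.67 to 1.10 in control, without overlap. Its sum overlapped, with 138, 98.3 and 45.2 FPKM in libraries labelled DKO, against 28.1, 20.8 and 84.1 FPKM in control, and most of the highest control sum was S100a8 and S100a9. The markers Ly6g, Mpo and Elane were at most 0.22 FPKM in every P36 library. Ly6g had 0.12, 0.17 and 0.12 FPKM in libraries labelled DKO and was listed at 0 in control, whereas Mpo and Elane overlapped. Named after their values were seen, Mmp8, Ngp and Ctsg were also higher in every library labelled DKO, as were 23.8% of all genes with values. Mmp8 had 0.62, 0.66 and 0.36 FPKM, against 0, 0.02 and 0.02 FPKM in control, and Prtn3 and Fcnb overlapped. At 6 months the summed list was 253, 610 and 141 FPKM in libraries labelled DKO, against 30.0, 24.8 and 18.7 FPKM in control, most of it from S100a8 and S100a9, which keratinocytes also make. Ly6g and Elane were at most 0.07 FPKM there, and Mpo had 0.74, 0.60 and 0.18 FPKM in libraries labelled DKO, against 0.07, 0 and 0.07 FPKM in control. All 3 neutrophil markers fitted at 6 months rose (S100a8, S100a9 and Cxcr2). Retnlg and Csf3r did not pass the filter at that age, and their groups overlapped. Csf3r had 0.60, 0.80 and 2.62 FPKM in libraries labelled DKO, against 0.74, 0.61 and 0.68 FPKM in control. Retnlg had 0.33, 0.22 and 1.66 FPKM in libraries labelled DKO, against 0, 0.31 and 0 FPKM in control. Cxcr2, a chemokine receptor of neutrophils, had 15.5, 16.5 and 11.1 FPKM in libraries labelled DKO, against 4.75, 5.10 and 5.21 FPKM in control (log2 difference 1.33, SE 0.16, limma adjusted p = 0.00109). The part of neutrophils in the levels of Lcn2, Camp, Ltf and Pglyrp1 was not tested.

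Within the groups the 9 genes did not peak in the same library. Among the P36 libraries labelled DKO, 5 genes (Saa3, Saa1, Lcn2, Cd14 and 2610528A11Rik) were highest in replicate 2, 3 (Hp, Camp and Ltf) in replicate 1, and Pglyrp1 in replicate 3. Pearson's r of log2(FPKM + 1) over the 12 libraries, which fall into 4 groups, is given only as a description of pattern. It was 0.97 between Saa3 and Hp and 0.95 between Lcn2 and 2610528A11Rik, but 0.36 between Hp and 2610528A11Rik. Over all fitted genes with curated symbols, the 3 most like 2610528A11Rik were Stfa3, Gsdmc and Rbp2 (r = 0.98 to 0.99), and the 3 most like Lcn2 were Wfdc12, Gsdmc and Krt16 (r = 0.96 to 0.98). Saa3 was most like Stab1, Capn2 and Plac8, and Hp most like Pcsk5, Slc1a5 and Ggt5 (r = 0.97 to 0.98). Cd14 was most like Ms4a4a, Sirpb1c and Ms4a6d (r = 0.97 to 0.98), Saa1 like Saa2, Ptx3 and Hpx (r = 0.97), and Pglyrp1 like Serpina3n, Timp1 and Prkag1 (r = 0.91 to 0.93).

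Other acute phase genes, which are not among the 9, rose at P36 and not at 6 months. Of 16 fitted at P36, 12 rose and 0 fell, against 18.0% and 5.32% of all genes, and their median log2 difference was 1.55, against 0.09 over all genes. Saa2 had 6.32, 9.91 and 5.36 FPKM in libraries labelled DKO, against 0.10, 0 and 0.10 FPKM in control (log2 difference 2.90, SE 0.20, limma adjusted p = 0.000226). Complement C4b, an opsonin precursor, had 14.0, 13.3 and 15.8 FPKM in libraries labelled DKO, against 2.35, 2.75 and 2.95 FPKM in control (log2 difference 2.06, adjusted p = 0.000168). Complement factor B (Cfb) and the lipopolysaccharide-binding protein Lbp rose by 2.20 and 1.82 on the log2 scale (adjusted p = 0.000337 and 0.000486). At 6 months 0 of 14 rose and 1 fell, against 23.2% and 18.2% of all genes, with a median log2 difference of −0.22, against 0.04 over all genes. The gene that fell was Orm2, an orosomucoid, with 0.15, 0.30 and 0.10 FPKM in libraries labelled DKO, against 1.26, 1.91 and 2.61 FPKM in control (log2 difference −1.28, adjusted p = 0.00298). The 6-month count of calls in either direction was 5 without replicate 3 labelled DKO and 0 without control replicate 1 or control replicate 3. Among the 5 was C4b, which fell (log2 difference −0.73, limma adjusted p = 0.0121). The difference of the DKO effect between the ages (6 months minus P36) was negative and passed the test for 12 of 17 genes and positive for 0, against 21.1% and 13.8% of all genes. Named after their values were seen, the fibrinogen genes Fga and Fgg, expressed in liver, were at most 0.04 FPKM in all 12 libraries.

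Other antimicrobial genes rose mostly at 6 months. At P36, 4 of 16 fitted rose and 1 fell, shares near the 18.0% and 5.32% of all genes (median log2 difference 0.55). At 6 months 12 of 17 rose and 0 fell, against 23.2% and 18.2% of all genes (median 1.18). The lysozyme Lyz2, also in the macrophage list, rose at P36, with 194, 122 and 135 FPKM in libraries labelled DKO, against 16.4, 20.4 and 20.7 FPKM in control (log2 difference 2.89, adjusted p = 0.000168). The psoriasin relative S100a7a fell at P36, with 43.0, 24.4 and 27.7 FPKM in libraries labelled DKO, against 104, 84.5 and 94.3 FPKM in control (log2 difference −1.58, adjusted p = 0.00141). S100a7a was the 1 gene of the list that fell at P36. At 6 months Slpi, a protease inhibitor that also kills bacteria, had 25.2, 17.7 and 21.6 FPKM in libraries labelled DKO, against 1.87, 1.91 and 2.19 FPKM in control (log2 difference 2.90, SE 0.15, adjusted p = 8.77e-05). The beta-defensins Defb4 and Defb1 rose by 2.07 and 1.03 on the log2 scale (adjusted p = 0.000255 and 0.000424), and the chitinase-like gene Chil1 by 4.96 (adjusted p = 0.000556). Named after their values were seen, Defb6 had 3848, 3572 and 3180 FPKM in libraries labelled DKO at 6 months, against 1028, 563 and 561 FPKM in control, and S100a8 had 111, 255 and 61.5 FPKM, against 9.73, 5.94 and 4.45 FPKM in control. S100a8 had 55.4, 39.9 and 17.5 FPKM in libraries labelled DKO at P36, against 17.5, 15.1 and 56.5 FPKM in control, so the P36 groups overlapped. The difference of the effect between ages passed the test in the positive direction for 8 of 19 genes and in the negative for 1, against 13.8% and 21.1% of all genes.

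**Figure D4:**
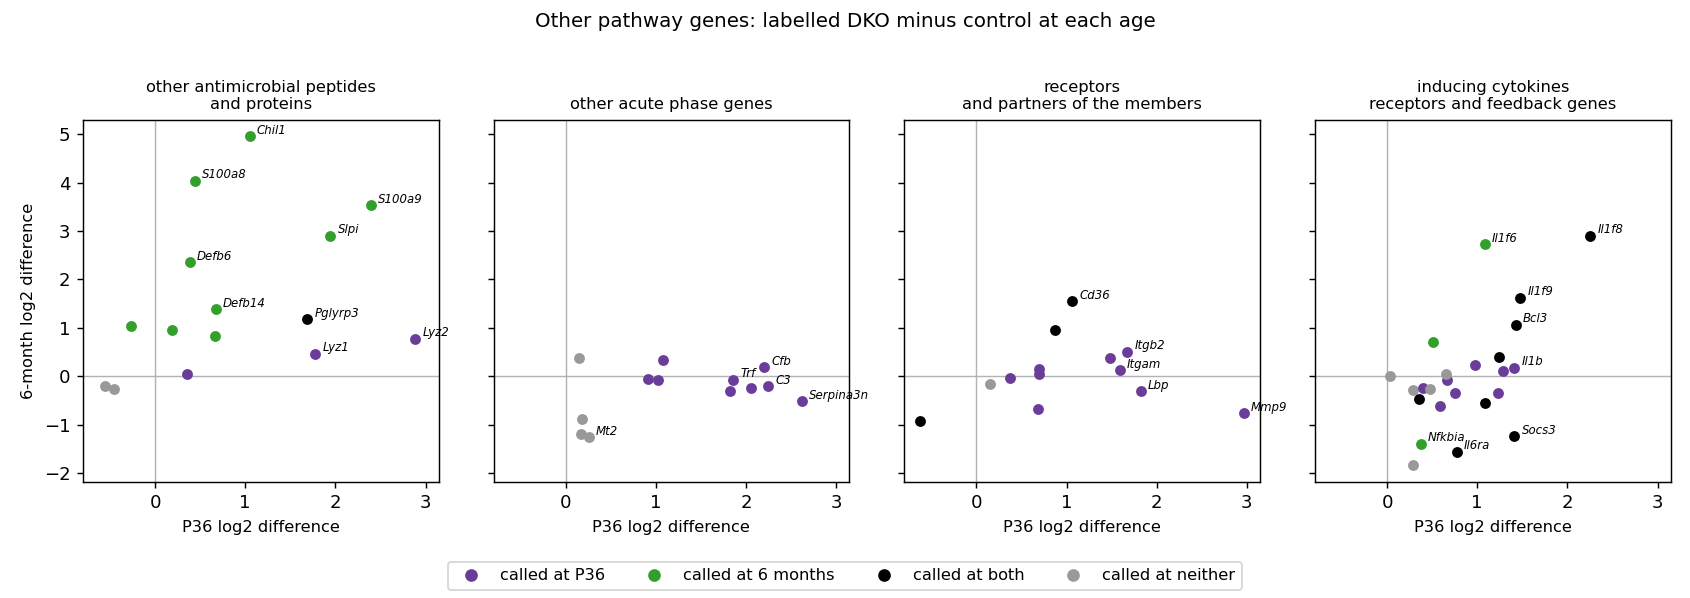
Log2 difference of each gene of 4 lists that is not among the 9, libraries labelled DKO minus control, at P36 (x axis) and at 6 months (y axis), for genes fitted at both ages, coloured by where limma's adjusted p was below 0.05. Most acute phase genes lie to the right and near 0 on the 6-month axis, such as Serpina3n (2.61 at P36). Mt2 lies near 0 at P36 and at −1.26 at 6 months, where it was not called. Control replicate 1 had 1340 FPKM of Mt2 there, against 277 and 367 FPKM in the other control libraries. Antimicrobial genes such as Chil1 (4.96) and S100a8 (4.04) lie high on the 6-month axis.

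Receptors and partners of the 9 rose mostly at P36. Of 14 fitted, 12 rose and 1 fell at P36, against 18.0% and 5.32% of all genes (7 called without replicate 2 or replicate 3 labelled DKO). Lbp is in this list and in the acute phase list, and its rise is counted in both. At 6 months 2 of 13 rose and 1 fell, against 23.2% and 18.2% of all genes. Several of these receptors, such as Cd163, Itgam and Itgb2, are macrophage genes, and all 11 macrophage markers rose at P36. The part of macrophages in these changes was not tested. Mmp9, a gelatinase that binds lipocalin 2, had 14.3, 12.2 and 8.17 FPKM at P36 in libraries labelled DKO, against 0.58, 0.63 and 0.52 FPKM in control (log2 difference 2.96, SE 0.19, adjusted p = 0.000168). At 6 months Mmp9 had 3.29, 3.15 and 7.60 FPKM in libraries labelled DKO, against 7.62, 8.39 and 8.30 FPKM in control (log2 difference −0.77, adjusted p = 0.0595, and −1.11 with adjusted p = 0.00131 without replicate 3 labelled DKO). It passed the threshold as lower also with both other scalings, the joint fit and the replicate block (adjusted p = 0.028 to 0.0427). Of the lipopolysaccharide receptor, Tlr4 and its partner Ly96 rose at P36 (log2 difference 0.67 and 0.87, adjusted p = 0.00877 and 0.0298; Ly96 had an adjusted p of 0.0671 to 0.0931 without control replicate 1 or 2, or without replicate 2 or 3 labelled DKO, and of 0.0594 with no filter and 0.0585 with median-ratio scaling), and Ly96 also at 6 months (0.95, adjusted p = 0.00141). Tlr2, a receptor of bacterial lipoproteins, rose by 1.48 at P36 (adjusted p = 0.000953). The integrin genes Itgam and Itgb2 of the macrophage and neutrophil receptor Mac-1 rose by 1.59 and 1.67 (adjusted p = 0.000474 for both). Cd163, the macrophage receptor of haptoglobin-haemoglobin complexes, rose by 0.69 at P36 (adjusted p = 0.00895). Slc22a17, described as a lipocalin 2 receptor, did not pass the test at either age (log2 difference 0.15 and −0.16, adjusted p = 0.574 and 0.456). Hmox1, which breaks down haem, fell at both ages (log2 difference −0.62 and −0.93, adjusted p = 0.0108 and 0.00107).

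The list of cytokines that induce such responses, with their receptors and feedback genes, rose mostly at P36 when taken as a whole. Of 24 fitted at P36, 16 rose and 0 fell, against 18.0% and 5.32% of all genes (median log2 difference 0.76). At 6 months 7 of 25 rose and 5 fell, shares near the 23.2% and 18.2% of all genes (median −0.07; 6 were called in all without replicate 2 labelled DKO). The fitted cytokines themselves did not rise mostly at P36. Named after their values were seen, Il1b rose only at P36, and Il1a and Lif only at 6 months, with Lif too low for the fit at P36. Il6 and Osm, named likewise, were too low for the fit at both ages. Il6 had 0.55, 0.55 and 0.37 FPKM at P36 in libraries labelled DKO, against 0, 0 and 0.11 FPKM in control. Osm had 0.35, 0.18 and 0.20 FPKM, against 0, 0 and 0.09 FPKM in control. The groups of Il6, Osm and Lif did not overlap at P36, and those of Il6 and Osm overlapped at 6 months. The interleukin 36 genes are given below. Socs3, the feedback inhibitor of Stat3 signalling, had 25.8, 24.6 and 27.6 FPKM at P36 in libraries labelled DKO, against 9.94, 8.94 and 8.58 FPKM in control (log2 difference 1.41, adjusted p = 0.000226). At 6 months Socs3 fell, with 18.0, 14.9 and 14.3 FPKM in libraries labelled DKO, against 64.9, 27.1 and 32.2 FPKM in control (log2 difference −1.24, adjusted p = 0.015, and 0.0574 without replicate 2 labelled DKO). The interleukin 6 receptor gene Il6ra likewise rose by 0.77 at P36 (adjusted p = 0.0392) and fell by 1.56 at 6 months (adjusted p = 0.000286). The P36 call of Il6ra was lost without control replicate 1, 2 or 3 or without replicate 2 or 3 labelled DKO (adjusted p = 0.0525 to 0.12). It was also lost with no filter, with both other scalings and with the replicate block (adjusted p = 0.0622 to 0.0728). Stat3, Osmr, the oncostatin M receptor, and the NF-kappaB cofactor Bcl3 rose at P36 by 1.29, 1.24 and 1.43 on the log2 scale (adjusted p = 0.000724, 0.000625 and 0.00104).

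The interleukin 36 genes of keratinocytes rose at 6 months. Il36b (Il1f8 in RefSeq's table) had 120, 152 and 109 FPKM in libraries labelled DKO, against 9.84, 23.7 and 17.2 FPKM in control (log2 difference 2.90, SE 0.29, adjusted p = 0.000637). Il36a (Il1f6) and Il36g (Il1f9) rose by 2.73 and 1.62 (adjusted p = 0.00217 and 0.00275). Of these, Il36b and Il36g also rose at P36, by 2.25 and 1.48 (adjusted p = 0.0049 and 0.00429). Il17a, a known inducer of Lcn2 that is named after its values were seen, was at most 0.05 FPKM at P36 and at most 0.17 FPKM at 6 months in any library. Il17c, named likewise, had 0.20, 0.61 and 0.21 FPKM at 6 months in libraries labelled DKO, against 0.20, 0 and 0 FPKM in control. Il17f had 0.27, 0.55 and 0.28 FPKM, against 0.16, 0.36 and 0.15 FPKM in control. The groups overlapped for each of these genes at both ages. The difference between the ages was negative and passed the test for 13 of 25 genes of this list and positive for 0, against 21.1% and 13.8% of all genes.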

How the data were processed

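Total RNA of dorsal epidermis, separated from dermis by heat, was depleted of ribosomal RNA and sequenced as 50-base single-end reads on a BGISEQ-500, per the labels' protocols. The authors deposited 1 table per age with FPKM values for 6 libraries, per the file headers. Those deposited tables also carry a log2 ratio of the genotypes with p-values and q-values, of which only log2 ratios are quoted. HISAT2 2.1.0 and RSEM 1.2.8 were named, per the submitters' processing notes, which give human builds for these mouse samples, so no coordinate is taken from them. The age of a table comes from its name, since its columns show only genotype and replicate number. RefSeq's GRCm38.p6 table gave symbols for 19343 of 19392 Entrez identifiers at P36 and for 17712 of 17750 at 6 months.

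Linear models were fitted in R 4.3.3 by limma 3.58.1, with a trended variance prior, to log2(FPKM + 1), which understates changes of low genes. Genes entered with 1 FPKM or more in 3 or more libraries. Each age was fitted on its 6 libraries, and the difference between ages on all 12. Adjustment was by Benjamini-Hochberg over all fitted genes, with calls made below an adjusted p of 0.05. The code was tested on simulated data. The 9 genes and all gene lists were chosen with earlier results of these data known. Named genes are the 9, the 4 of each list with the smallest adjusted p per age, and receptors and partners. Also named are markers near 0, the 3 genes most like each of the 9, and those marked as named after their values were seen. Alternatives were another pseudocount, other filters and scalings, a joint fit, the replicate number as a block and leaving out each library.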

Additional observations from a re-analysis of the deposited data

Results flagged for a closer look

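The 18 genes below were singled out because the effect of the DKO label differed between the ages in the limma fit of all 12 libraries (adjusted p below 0.05). None is among the 9 genes, for which the difference was not tested. Each value is the log2 effect at 6 months minus that at P36.

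The acute phase and complement genes Saa2, C4b, Cfb and Lbp had the smaller effect at 6 months, with −2.64 (adjusted p = 0.000124), −2.30 (0.0028), −2.01 (0.0032) and −2.13 (0.00385). Without replicate 3 labelled DKO, C4b fell at 6 months (log2 difference −0.73, limma adjusted p = 0.0121). Orm2 had −1.44 (0.00396) and Serpina3g −1.07 (0.0461), values that do not stand for a smaller effect. Orm2 fell at 6 months and did not pass the filter at P36. Serpina3g had a log2 difference of 0.185 at P36 and −0.88 at 6 months (limma adjusted p = 0.465 and 0.0546). The partner genes Mmp9, Itgam and Itgb2 had −3.73 (7.4e-05), −1.47 (0.00287) and −1.16 (0.0327), and the lysozyme Lyz2 had −2.11 (0.0412). Of the cytokine signalling genes, Socs3 had −2.65 (0.000295), Il6ra −2.33 (0.0002), Stat3 −1.18 (0.00346) and Osmr −0.83 (0.00364). For Socs3 and Il6ra the effect was a rise at P36 and a fall at 6 months.

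The antimicrobial genes Chil1, Defb4, Defb1 and S100a7a had the larger value at 6 months, with 3.91 (0.00229), 1.45 (0.00638), 1.29 (0.00459) and 1.37 (0.00311). For S100a7a the P36 effect was a fall and both groups were at most 1.08 FPKM at 6 months.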

How the results depend on the processing

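The count of the 9 genes called higher at P36 was 7, and 4 with the filter at 5 FPKM, where only 4 were tested. Leaving out 1 library gave 4 to 7, with the 4 whenever a library labelled DKO was left out and 5 genes were then tested. Pglyrp1 was tested but not called with median-ratio scaling, without control replicate 1, or without any single library labelled DKO. Camp was called when no filter was used. At 6 months 2 were called, and 2 to 2 with 1 library left out. Saa3 was also called there with a pseudocount of 0.1, median-ratio scaling, the joint fit and the replicate block.

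Over all genes, leaving out 1 library gave 1662 to 2660 calls at P36, against 2949 with all libraries, with 1662 and 1697 without replicate 2 and replicate 3 labelled DKO. It gave 3682 to 4893 at 6 months, against 5207, and 3603 to 4843 for the difference between ages, against 4631. For the lists at P36, it gave 4 to 6 called antimicrobial, 9 to 12 acute phase, 7 to 13 receptor and partner and 12 to 16 cytokine and feedback genes. At 6 months the same ranges were 11 to 12, 0 to 5, 3 to 5 and 6 to 14. Receptor and partner genes called at P36 were 7 with the filter at 5 FPKM. At 6 months they were 5, against 3, with no filter, both scalings, the joint fit and the replicate block. Acute phase genes called at 6 months were 2, against 1, with no filter and both scalings, and 3 with the joint fit and the replicate block.

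Median-ratio scaling put the share of higher calls at P36 at 58.9%, against 77.1%, and that for the difference between ages at 54.7%, against 39.5%. Leaving keratin and cornified envelope genes out of the totals put it at 36.7%, against 56.0%, at 6 months and at 28.5% for the difference. The median log2 difference of all genes was −0.03, against 0.09, with the first scaling at P36, and −0.12, against 0.04, with the second at 6 months. Of the 18 named genes whose effect differed between ages, 14 to 18 were fitted per alternative and 14 to 18 stayed below the threshold, and none of those fitted changed sign. A pseudocount of 0.1 raised the log2 difference of Cd14 at P36 to 2.49 and that of 2610528A11Rik to 5.20 at P36 and 6.53 at 6 months. Same-numbered libraries did not deviate together (r = −0.12 to 0.14 at P36 and −0.06 to 0.18 at 6 months), so the numbers are not taken as pairs. With the replicate block 2607 genes were called at P36, 4862 at 6 months and 4208 for the difference. Apart from the number of genes tested or libraries left, the cause of these shifts was not tested.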
